A study of Kluyveromyces lactis with 12 samples.

Results

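The effect of deleting the transcription factor KlYap8 in the budding yeast Kluyveromyces lactis was measured in cells exposed to sodium arsenite. The account rests on the 4 arrays labelled as the As(III) repetitions, of 12 two-colour arrays in all, and on every gene measured on them. Each of these 4 arrays paired the Klyap8 deletion strain, grown in YPD medium and exposed to arsenite for 30 min, with the wild type Klwt from the same exposure, each labelled with its own dye. The deletion strain was in Cy3 on replicates 1 and 3 and in Cy5 on replicates 2 and 4. The arsenite dose is 25 mM by the treatment labels but 0.1 mM by the protocol text, a conflict that could not be settled. For comparison, 4 arrays set the same strains side by side without stress and 4 after 30 min with t-BOOH (tert-butyl hydroperoxide, an organic peroxide) at 0.25 mM. The sources used here do not say how the gene was removed or whether the deletion strain was 1 clone. The series' design text calls the repetitions biological experiments. The p-values rest on the spread between them, after a term for the dye, drawn strongly towards a spread shared by all genes.

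Yap8 (also called Acr1 or Arr1) is a bZIP transcription factor known in Saccharomyces cerevisiae as the sensor of trivalent arsenic, which binds to cysteines of the protein. There it switches on the neighbouring genes ARR2, which encodes an arsenate reductase, and ARR3, which encodes an arsenite export pump. Arsenite binds protein thiols, and yeast cells under it are known to raise thiol redox, sulfur assimilation and protein quality control genes and to lower ribosome production. Gene names are mostly those of the Saccharomyces cerevisiae counterparts, and roles given below are known from that yeast.

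Of 5081 genes on the array, 5057 were well above background in either strain on at least 2 of the 4 arsenite arrays and entered the test, while 24 dimmer ones did not. Median spot brightness on these arrays was 2353.25 to 2724 in Cy3 and 5970.5 to 7163.5 in Cy5, over background medians of 20 to 39. Replicate 4 stood apart. There the SD over genes of the log2 ratio (deletion over wild type) was 0.195, against 0.378, 0.385 and 0.499 on replicates 1, 2 and 3. Its ratios correlated with those of the other arsenite arrays at 0.426 to 0.459 over genes, against 0.607 to 0.707 among replicates 1 to 3.

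ARR1 (KLLA0E00265g), the deleted gene, and its neighbour ARR2 (KLLA0E00243g) had clearly separate signals in the strains on each arsenite array. The ARR1 signal of the deletion strain was 10.30, 10.39, 10.27 and 10.30 on the log2 scale on replicates 1 to 4, against 12.50, 12.44, 12.45 and 12.23 in the wild type. No deletion value came near a wild-type value, yet the deletion strain's signal was well above background on 4 of 4 arrays. Nothing in the sources used here places the probe inside or outside the deletion, so the remaining signal has no set meaning. The mean log2 ratio was -2.09 ± 0.13 (SD, n = 4), a 4.26-fold lower level in the deletion strain (limma adjusted p = 6.08e-07).

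ARR2 stood at 8.48, 8.78, 8.80 and 8.83 in the deletion strain, against 12.67, 13.10, 13.20 and 13.52 in the wild type on the same arrays. The log2 ratios were -4.19, -4.33, -4.40 and -4.68, the lowest mean of all genes tested at -4.40 ± 0.21 (SD, n = 4, limma adjusted p = 8.87e-10), or 21.1-fold lower. Replicate 4, where most other ratios were small, gave the largest ARR2 ratio. Both spots of each gene gave alike values, from -4.12 to -4.69 for ARR2 and from -1.91 to -2.21 for ARR1.

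**Figure D1:**
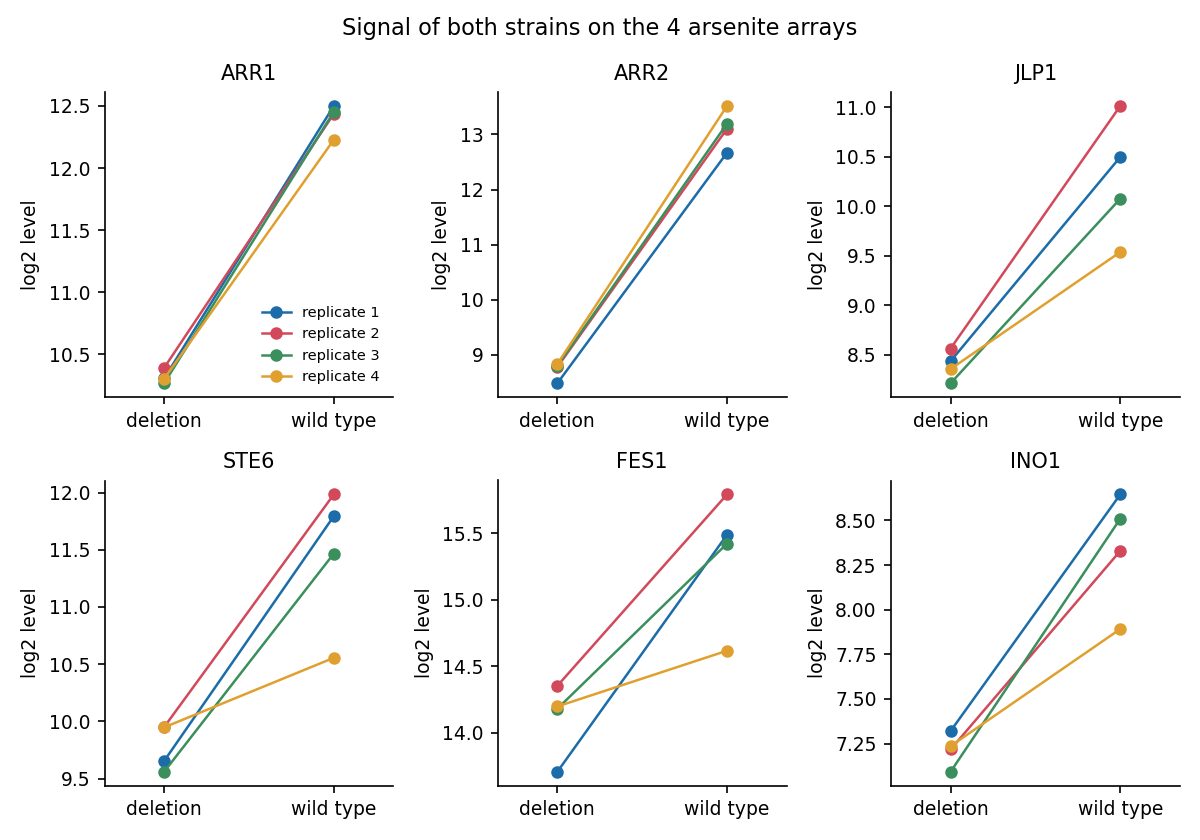
Log2 signal of 6 genes in the deletion strain (left) and in the wild type (right) on the 4 arsenite arrays, after normalization between arrays. Each line joins the strains on 1 array, and the vertical axes differ between panels. All lines climb towards the wild type, and on replicate 4 the wild-type signals of JLP1, STE6, FES1 and INO1 are the lowest of the 4 while that of ARR2 is the highest.

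ARR2 and ARR1 are the sixth and the seventh annotated genes from the left end of chromosome E, and the difference did not extend evenly along it. Between them and the end, KLLA0E00155g (mean log2 ratio -0.19), KLLA0E00177g (-0.07) and KLLA0E00221g (-0.18) did not pass the test. On the other side, KLLA0E00287g (0.05), KLLA0E00309g (-0.06), the oligopeptide transporter gene OPT1 (0.11) and EFM1 (0.04), a protein methyltransferase gene, did not pass. KLLA0E00419g was lower, with ratios of -0.35, -0.48, -0.74 and -0.26 (limma adjusted p = 0.0199), a call lost without replicate 2 or 3 and with all 12 arrays in the fit. KLLA0E00133g, the second gene from the end, was lower at -2.60 and belongs to a family described further below. ARR3 and YAP1 were not analysed here, since no gene of the reference table carries those symbols.

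Of the arsenic list, 7 members were tested and 2 were lower, the deleted gene ARR1 and ARR2. The other 5 had ratios near the median of all genes, which was 0.00. YCF1, the vacuolar pump of arsenic-glutathione conjugates, averaged -0.14, with -0.18, -0.20, -0.13 and -0.06 on replicates 1 to 4 (limma adjusted p = 0.362). The glycerol channel gene FPS1, through which arsenite enters, ran from 0.55 to -0.13 over the arrays (mean 0.14, adjusted p = 0.511). The stress kinase genes HOG1 (-0.13) and PBS2 (-0.04) and the response regulator gene SKN7 (0.15) did not pass either.

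Over all genes, 365 were lower in the deletion strain (7.22% of genes tested) and 361 were higher (7.14%), by limma at an adjusted p under 0.05. Before adjustment, 1509 genes had a p under 0.05. Of the lower genes 32 were at least 2-fold lower, and 0 of the higher genes were 2-fold higher. The total of 726 differed between fits. It was 238 without a coefficient for the dye, 68 of them (28.6%) higher. With all 12 arrays in 1 fit it was 218, and 46 of these (21.1%) were higher, against 49.7% of the 726. It was 324 without replicate 2 and 457 without replicate 3, in fits with 1 residual degree of freedom. There the spread pooled over genes carried nearly all the weight (prior degrees of freedom 124 and infinite, against 9.10 in the main fit). Counts with 1 array left out, here and below, are thus not like for like with the main ones. Called alike with the dye coefficient, without it and with all 12 arrays were 158 genes, 135 lower (2.67%) and 23 higher (0.455%), and these are named below as called in 3 fits. Of the 135 lower genes, 74 have a symbol.

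Outside the chromosome ends, JLP1, STE6, FES1, INO1, POT1 and BIO2 were the lowest named genes after ARR2 and ARR1. JLP1 (KLLA0F26158g), a dioxygenase that releases sulfur from sulfonates, had 8.44, 8.56, 8.21 and 8.36 in the deletion strain, against 10.50, 11.01, 10.08 and 9.54 in the wild type. The strains did not overlap, and the ratios of -2.06, -2.45, -1.86 and -1.18 averaged -1.89 ± 0.53 (SD, n = 4, limma adjusted p = 6.00e-05). STE6 (KLLA0B14256g), the exporter of the a-factor mating pheromone, had ratios of -2.14, -2.03, -1.91 and -0.61 (mean -1.67, adjusted p = 3.30e-04). Its deletion signals were 9.56 to 9.95, and its wild-type signal was 10.56 on replicate 4 against 11.47 to 11.98 on the others. FES1 (KLLA0E11375g), a nucleotide exchange factor of the Hsp70 chaperones, had ratios of -1.78, -1.44, -1.24 and -0.42 (mean -1.22). INO1 (KLLA0D16412g), which makes inositol phosphate, stood at -1.33, -1.11, -1.42 and -0.66 (mean -1.13). POT1 (KLLA0F10879g), the last enzyme of fatty acid oxidation, averaged -1.11 ± 0.37 and BIO2 (KLLA0A05863g), biotin synthase, -1.11 ± 0.28 (SD, n = 4 each).

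The others of the 15 lowest genes have no symbol in the reference table. They were KLLA0D02420g (-1.63), KLLA0F06061g (-1.46), KLLA0B01936g (-1.26), KLLA0C06677g (-1.14), KLLA0E20637g (-1.11), KLLA0C14993g (-1.06) and KLLA0C01562g (-1.05), with limma adjusted p between 2.91e-05 and 0.00138. The deletion signal of KLLA0D02420g was dim, at 6.30 to 6.60, and well above background on 3 of 4 arrays. KLLA0C06677g stood at -1.05 without stress and at -1.475 under t-BOOH. The others of these genes lay between -0.67 and 0.06 without stress. All 15 lowest genes, the 7 without a symbol included, were called in 3 fits. For 12 of these 15 the ratio nearest to 0 was that of replicate 4, and for 13 the lowest wild-type signal was on replicate 4, while for 3 the lowest deletion signal was. The median SD over the arrays was 0.201 for the deletion signals and 0.35 for the wild-type signals of these 15 genes. The part of replicate 4 in the size of these means was not tested beyond the values without it.

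**Figure D2:**
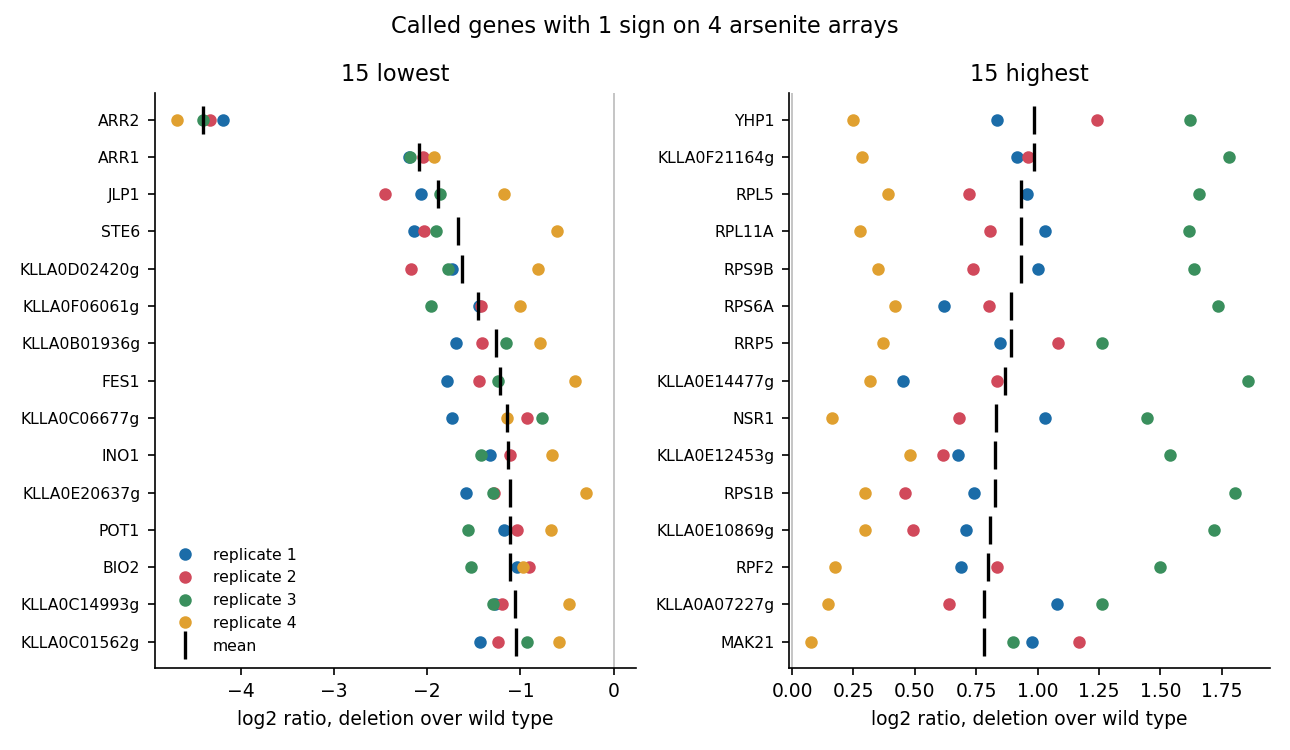
Log2 ratios of deletion over wild type (horizontal axis) on each of the 4 arsenite arrays for the 15 lowest (left) and the 15 highest (right) called genes with 1 sign on 4 arrays, chromosome-end genes left out. Points are arrays and black bars are means. Replicate 4 lies nearest to 0 for all 15 of the highest genes, and replicate 3 farthest from 0 for 14 of them.

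Of 26 genes of thiol and peroxide defence tested, 9 were lower against a background of 7.22%, 1 was higher, and the median ratio was -0.21 against 0.00 for all genes. The largest were SRX1, sulfiredoxin, which repairs oxidised peroxiredoxins (-1.19, -0.89, -0.93 and -0.32, mean -0.83, limma adjusted p = 0.00201), and ECM4, a glutathione transferase (-0.67, -1.10, -0.88 and -0.40, mean -0.76, adjusted p = 0.00422). CCP1, the mitochondrial cytochrome c peroxidase (-0.66), was the third of the list called in 3 fits. Lower, but not called in 3 fits, were CTA1 (-0.56), the peroxisomal catalase, GRX1 (-0.54), a glutaredoxin, the peroxiredoxins DOT5 (-0.52) and PRX1 (-0.45), CCS1 (-0.46), the copper chaperone of superoxide dismutase, and TRX2 (-0.41), thioredoxin. GEX1, a glutathione exchanger, was higher at 0.51. The count of lower members was 3 without replicate 2 and 7 without replicate 3, and 12 without replicate 4.

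Of 11 glutathione synthesis and turnover genes 0 were called by limma, with a median of 0.00, and 2 were lower and 1 higher without replicate 4. Of 30 sulfur assimilation and methionine genes 6 were lower (20%, against 7.22% over all genes) and 0 higher, with a median of -0.08. Beside JLP1 these were MET17, which builds homocysteine from sulfide (-0.32, -1.22, -1.15 and -0.02, mean -0.68, limma adjusted p = 0.0327), HOM3 (-0.66), MET14 (-0.55), MET16 (-0.45) and the sulfate permease gene SUL2 (-0.35). Only JLP1 of these 6 was called in 3 fits, and the lower count was 3 without replicate 2 or without replicate 3. The median of this list was -0.13 without stress and -0.30 under t-BOOH, and so no nearer to 0 than under arsenite. Without stress MET17 stood at -0.74 and JLP1 at 0.03. The pentose phosphate and NADPH list had 2 of 10 lower (20%, against 7.22% over all genes). These were ALD6, aldehyde dehydrogenase (-0.85), and IDP1, isocitrate dehydrogenase (-0.76, called in 3 fits).

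Iron-sulfur cluster assembly had 4 of 24 genes lower (16.7%, against 7.22% over all genes) and 0 higher (median -0.16). NAR1 (-0.73, -0.67, -0.51 and -0.25, mean -0.54, limma adjusted p = 0.0102) and CIA2 (-0.60, -0.58, -0.56 and -0.24, mean -0.49, adjusted p = 0.0119), both of the cytosolic assembly machinery, were called in 3 fits. The mitochondrial ISA2 (-0.48) and YAH1 (-0.39) were lower in the main comparison. The lower count was 1 without replicate 2, 2 without replicate 3 and 6 without replicate 4. In the iron and metal transport list 3 of 23 were lower, the copper chaperone gene ATX1 (-0.76), SMF3 (-0.51), a vacuolar metal transporter, and CTR2 (-0.41), and 2 were higher, FET3 (0.49) and FRE1 (0.48) of reductive iron uptake. None of these 5 was called in 3 fits, and the higher count was 4 without replicate 1 or without replicate 4 and 1 without replicate 2 or without replicate 3.

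Of 31 heat shock and chaperone genes 7 were lower (22.6%, against 7.22% over all genes) and 2 higher (6.45%, against 7.14%). A mean ratio below 0 was found for 25 of them. The median was -0.17, over per-array medians from -0.44 (replicate 2) to -0.00 (replicate 4). FES1 was called in 3 fits. HSP26, a small heat shock protein, had ratios of -0.95, -0.87, -1.55 and -0.23 (mean -0.90, limma adjusted p = 0.00274). The Hsp40 genes SIS1 (-0.72) and MDJ1 (-0.61), HSP42 (-0.59), SGT2 (-0.39) and CPR7 (-0.38) were the other lower members. The higher ones were ZUO1 and SSZ1 (0.47 each), which form the chaperone complex bound to ribosomes, and 0 were higher without replicate 3, without the dye coefficient or with all 12 arrays. The lower count was 2 without replicate 2 and 12 without replicate 4. Of 51 proteasome and ubiquitin genes 1 was lower (1.96%, against 7.22% over all genes) and 0 were higher. The lower one was CUZ1, a partner of Cdc48 and the proteasome known to respond to arsenite (-1.39, -0.98, -1.05 and -0.40, mean -0.96, limma adjusted p = 0.00105, called in 3 fits). Without replicate 1, 3 or 4 the proteasome list had 3, 2 or 4 lower genes. The autophagy list had 2 of 17 lower (11.8%, against 7.22% over all genes), ATG7 (-0.46) and ATG4 (-0.35). Neither was called in 3 fits (calls lost in 3 and 6 of 12 alternatives), and 5, 0, 1 and 4 genes of the list were lower without replicates 1 to 4.

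Of 58 cytosolic ribosomal protein genes 55 were higher against a background of 7.14%, 0 were lower, and all 58 had a mean ratio above 0 (median 0.67, range 0.12 to 0.93). RPS30A (0.31), RPP1 (0.24) and RPL10 (0.12) did not pass. The symbol RPP1, which the list picked up by its name, stands in Saccharomyces cerevisiae for a subunit of RNase P and not for a ribosomal protein. The median was 0.62, 0.34, 1.31 and 0.26 on replicates 1 to 4. Both arrays with the deletion strain in Cy3 (replicates 1 and 3) thus had the higher medians. The main fit takes the gap between the 2 dye orientations as dye for each gene, and the count of 55 rests on that. With 2 arrays of each dye orientation, whether the gap came from the dye or from single replicates was not tested. Without the dye coefficient 22 were higher and with all 12 arrays 7, and 5 genes were called in 3 fits (0.455% over all genes). These were RPL5, RPS9B, RPS6A, RPS23B and RPS22A. RPL5 (KLLA0D06941g), which carries the 5S rRNA into the large subunit, had 14.67, 14.57, 15.38 and 14.43 in the deletion strain, against 13.71, 13.85, 13.72 and 14.04 in the wild type. Its ratios of 0.96, 0.72, 1.66 and 0.39 averaged 0.93 ± 0.54 (SD, n = 4, limma adjusted p = 0.00177). Leaving out 1 array in turn gave 38 to 56 higher ribosomal protein genes, with the 38 found without replicate 3.

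Of 137 ribosome biogenesis genes 87 were higher (63.5%, against 7.14% over all genes) and 0 lower (median 0.44, with 0.57, 0.42, 0.86 and -0.09 on replicates 1 to 4). On replicate 4 the median was thus below 0. RRP5 (0.85, 1.08, 1.26 and 0.37, mean 0.89, limma adjusted p = 0.00246), which acts in both subunits' rRNA processing, MAK21 (0.98, 1.17, 0.90 and 0.08, mean 0.78), UTP8 (0.63) and UTP4 (0.60) were called in 3 fits. RPF2 (0.80), a partner of the 5S particle, and NSR1 (0.83), a nucleolin relative, were called in the main comparison. Without replicate 2 the count was 35, without replicate 3 it was 55, without replicate 4 it was 101, and without the dye coefficient it was 12. The 15 highest genes were made up of 5 ribosomal protein genes (RPL5, RPL11A, RPS9B, RPS6A and RPS1B), 4 biogenesis genes, the homeobox repressor gene YHP1 (0.99), and 5 genes without a symbol, led by KLLA0F21164g (0.98, called in 3 fits).

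Other lists held fewer called genes, to be read against the 7.14% higher and 7.22% lower over all genes. Translation factors had 5 of 28 higher, PAB1 (0.52), TIF11 (0.47), GCD10 (0.45), EFB1 (0.42) and NIP1 (0.36), 0 of them in 3 fits, and 0 lower (median 0.21), and the higher count was 11, 3, 2 and 7 without replicates 1 to 4. Of 72 mitochondrial ribosomal protein genes 3 were higher, MRPL15 (0.60, called in 3 fits), MRPL8 (0.39) and MRP7 (0.36), with a median of 0.09. Histone genes had 2 of 10 higher, HTB2 (0.77, 0.99, 0.85 and 0.51, mean 0.78, limma adjusted p = 0.00198, called in 3 fits) and the variant HTZ1 (0.42). Respiration had QCR6 (0.55) higher among 42, glycolysis TYE7 (0.35) among 12, and nucleotide synthesis GUA1 (0.51) among 18. Amino acid synthesis had ARO9 (0.65) and GLN1 (0.38) higher and BAT1 (-0.40) and GLT1 (-0.37) lower among 53. Ergosterol synthesis had ERG10 (0.40) higher and ERG2 (-0.88, called in 3 fits) lower among 25. In the multidrug efflux list 1 of 13 was lower, PDH1 (-0.88), a symbol that in Saccharomyces cerevisiae names an enzyme of propionate metabolism and not a pump. No member passed among 11 stress carbohydrate genes or 11 Yap and stress regulators by limma, and at most 1 member of each list was called with any 1 array left out. In the other lists of this paragraph, counts with 1 array left out, against the counts above, ranged from 1 to 6 higher for mitochondrial ribosomal proteins, 1 to 5 for histones, 1 to 3 for respiration, 0 to 7 for ergosterol synthesis 1 to 5 for amino acid synthesis, 0 to 1 for glycolysis and 0 to 2 for nucleotide synthesis. The highest of these came without replicate 1 for mitochondrial ribosomal proteins and without replicate 4 for histones, respiration, ergosterol and amino acid synthesis and glycolysis, and the 0 for nucleotide synthesis without replicate 3. Lower counts without replicates 1 to 4 were 3, 0, 0 and 5 for respiration and 3, 0, 2 and 5 for amino acid synthesis. Of 12 alternatives, TYE7 lost its call in 8, GLN1 in 7, BAT1 and EFB1 in 6 each, ERG10 and MRPL8 in 5 each, TIF11 and HTZ1 in 4 each and GUA1 in 3.

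**Figure D3:**
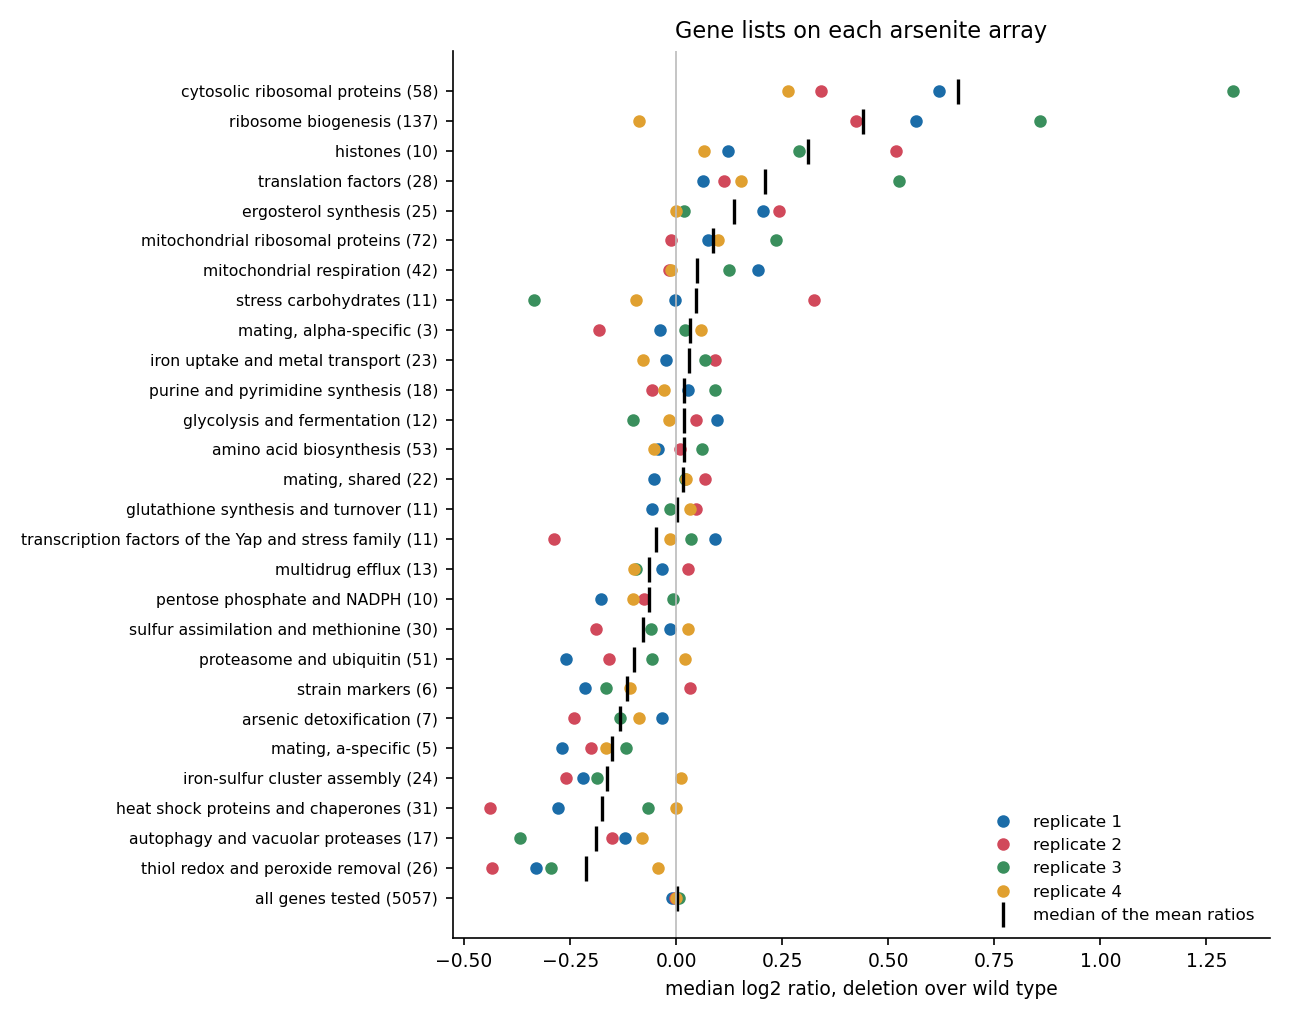
Median log2 ratio of deletion over wild type (horizontal axis) of each gene list on each of the 4 arsenite arrays (points) and of the mean ratios (black bars), with the number of genes tested in brackets and all genes in the bottom row. Ribosomal protein genes lie at 0.26 to 1.31 on all 4 arrays, and ribosome biogenesis genes at 0.42 to 0.86 on replicates 1 to 3 and at -0.09 on replicate 4.

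Mating type and strain markers were checked, since the strains could differ in them. Among 5 a-specific genes STE6 alone was lower, while STE2, the receptor of the alpha pheromone (-0.15), BAR1 (-0.05), AGA2 (-0.11) and ASG7 (-0.17) did not pass. Among 3 alpha-specific genes 0 were called by limma, with STE3 at 0.03, HMLALPHA1 at 0.10 and SAG1 at -0.17, and 0 were called with any 1 array left out. Per-array medians of the a-specific list ran from -0.27 to -0.12 and those of the alpha-specific list from -0.18 to 0.06. Of 22 mating genes shared by both types KAR4, a regulator of mating genes (-0.88, -1.13, -0.66 and -0.61, mean -0.82, adjusted p = 0.00183, called in 3 fits), and STE4 (-0.63, with replicate 2 at 0.37) were lower. That share of 9.09% is near the 7.22% lower over all genes. Of 6 strain markers HIS3 was lower (-0.59, -0.50, -0.26 and -0.24, mean -0.40, adjusted p = 0.0323), a call lost without replicate 1 or 2 and without the dye coefficient. URA3 (0.03), LYS2 (0.08), LEU2 (-0.10), ADE2 (-0.13) and TRP1 (-0.18) did not pass.

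The outermost genes of the chromosomes were the other strongly lower group. Over the 12 chromosome ends, 15 of 34 tested genes among the 3 outermost were lower, 0 were higher, and all 15 were called in 3 fits (2.67% over all genes). All 15 sat at the first or second position, where 22 genes were tested, and 0 of the 12 tested genes at the third position were called (median -0.14). At positions 4 to 15, 24 of 140 genes were lower (17.1%, against 7.22% over all genes) and 2 higher, with a median of -0.06. Of the lower ones 7, ARR1 and ARR2 among them, were called in 3 fits. The lower count there was 28, 15, 13 and 25 without replicates 1 to 4.

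Of the 15 lower genes 12 fall into 2 families by gene length. The 5 genes of 1047 bases (KLLA0A00110g, KLLA0C00110g, KLLA0D20031g, KLLA0E00111g and KLLA0F00132g) had mean ratios from -2.46 to -2.41. On replicates 1 to 4 they lay at -2.62 to -2.59, -2.82 to -2.74, -2.97 to -2.90 and -1.47 to -1.36. The 7 genes of 1524 bases (KLLA0A00132g, KLLA0B00143g, KLLA0C00132g, KLLA0D00143g, KLLA0D20009g, KLLA0E00133g and KLLA0F00154g) had means from -2.70 to -2.58, and lay at -3.39 to -3.23, -2.74 to -2.55, -2.95 to -2.75 and -1.79 to -1.66. Members of a family thus differed among themselves by far less than the arrays did. Whether a probe of one member also picks up the others was not tested, and the 12 genes may not be separate observations. The genes of 219 and of 342 bases that recur at the same positions did not pass, 2 of each, at -0.16 and -0.12 and at -0.27 and -0.26.

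The remaining 3 were KLLA0C19547g (-2.14), KLLA0B14927g (-0.97) and KLLA0C19437g (-0.42). KLLA0C19547g, the outermost gene of the right end of chromosome C, had ratios of -2.53, -2.24, -2.84 and -0.94 under arsenite (limma adjusted p = 2.56e-05). The same gene stood at -0.89, 0.17, -0.48 and -0.56 without stress and at -1.22, -0.36, 0.58 and -0.23 under t-BOOH. The differences from arsenite did not pass the test against untreated cells (adjusted p = 0.111) or against t-BOOH (adjusted p = 0.0509).

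**Figure D4:**
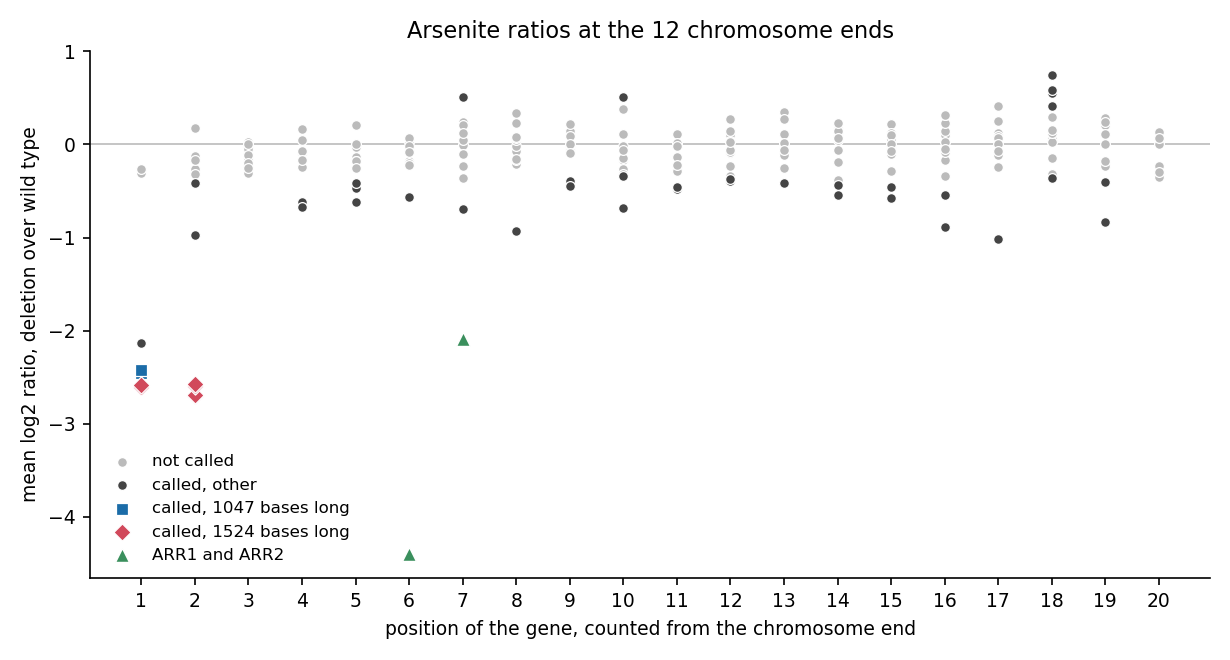
Mean log2 ratio of deletion over wild type under arsenite (vertical axis) against the position of the gene counted from its chromosome end, over 12 ends (horizontal axis). Squares and diamonds are the families of 1047 and 1524 bases, which lie between -2.70 and -2.41 at positions 1 and 2, and triangles are ARR2 (position 6) and ARR1 (position 7).

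Whether the deletion acted more strongly under arsenite than without stress was asked gene by gene, as the arsenite ratio minus the untreated ratio. The test called 2 of 5067 genes (0.0395%), ARR2 and JLP1, both lower, while 678 reached an unadjusted p under 0.05. ARR2 averaged -4.40 under arsenite, against -1.65 ± 0.28 in untreated cells (-1.46, -1.50, -1.58 and -2.06), a difference of -2.75 (SE 0.17, limma adjusted p = 1.44e-04). With the scanner's processed signals this call was lost (ARR2 adjusted p = 0.0922), and 0 genes were called. Untreated signals of ARR2 were 8.03, 7.92, 7.75 and 7.22 in the deletion strain, against 9.49, 9.41, 9.33 and 9.28 in the wild type. The wild-type signal was thus 12.67 or more on each arsenite array, against at most 9.49 on untreated arrays. The deletion strain's signal was 8.48 to 8.83 on arsenite arrays, against 7.22 to 8.03 on untreated arrays. In the deletion strain too, all arsenite signals of ARR2 thus lay above the untreated ones, a shift that was not tested.

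JLP1 averaged -1.89 under arsenite, against 0.03 in untreated cells, where its ratios were 0.14, 0.05, 0.11 and -0.16. Under arsenite the wild-type signal was 9.54 to 11.01, against 8.16 to 8.37 without stress, while the deletion strain's was 8.21 to 8.56, against 8.13 to 8.48. The ratios of these conditions did not overlap, and the difference of -1.92 (SE 0.24) passed at a limma adjusted p of 0.0312, a call lost without arsenite replicate 1 or 3 or without any 1 untreated array. JLP1 was lower under t-BOOH too, at -1.01 ± 0.40 (SD, n = 4). Its arsenite ratio did not pass as different from that (difference -0.88, SE 0.28, limma adjusted p = 0.089). Against untreated cells ARR1 differed by -0.96 (SE 0.18), STE6 by -1.80 (SE 0.38) and POT1 by -1.05 (SE 0.17), and these did not pass over all genes. For INO1 (-1.13 under arsenite, -1.14 without stress, difference 0.01, SE 0.14) and BIO2 (difference -0.10, SE 0.23) the difference was smaller than its SE. The families of 1047 and 1524 bases at the chromosome ends had similar ratios without stress, at -2.34 to -2.31 and -2.23 to -2.03, with no difference that passed (lowest adjusted p = 0.318). Of the ribosomal protein genes 0 passed as different from untreated cells, where their median was 0.09. Over all genes 0.0395% passed, so a count of 0 does not show that their ratios were alike. Their median difference, arsenite minus untreated, was 0.52, against -0.01 over all genes. Without arsenite replicate 4 the test called 28 genes.

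**Figure D5:**
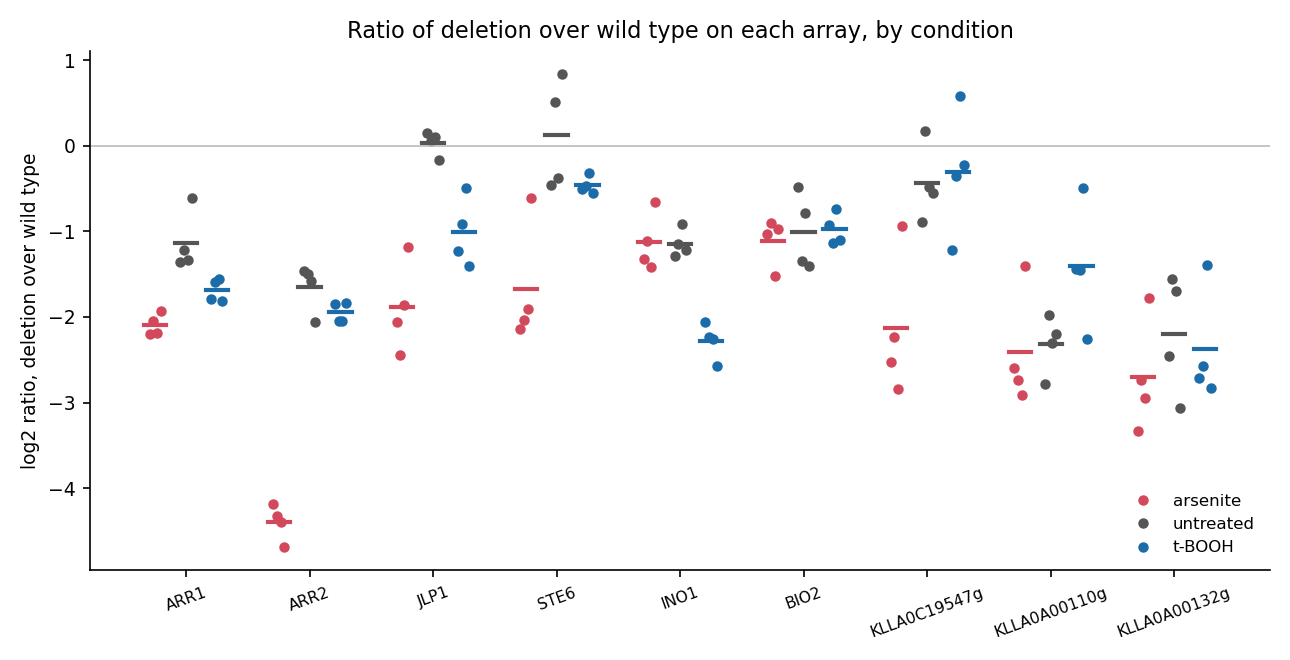
Log2 ratio of deletion over wild type (vertical axis) of 9 genes on each array under arsenite, untreated and under t-BOOH. Points are arrays and bars are means of 4. ARR2 lies at -4.68 to -4.19 under arsenite, against -2.06 to -1.46 untreated, and JLP1 at -2.45 to -1.18, against -0.16 to 0.14.

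Against t-BOOH, 105 of 5066 genes had a higher arsenite ratio (2.07%) and 59 a lower one (1.16%), with 1309 genes at an unadjusted p under 0.05. The t-BOOH arrays lay on another slide, so slide and condition cannot be told apart here. ARR2 was again among the lower ones, at -4.40 under arsenite against -1.95 ± 0.12 under t-BOOH, a difference of -2.45 (SE 0.14, limma adjusted p = 1.17e-04). Among genes that passed, the next lowest differences were KLLA0E23497g (-1.85), KLLA0F00682g (-1.63), KLLA0F06061g (-1.52) and MPM1 (-1.32). Differences of -2.80 for HSP26, -1.65 for FES1 and -1.62 for CUZ1 did not pass (adjusted p = 0.0509, 0.0677 and 0.0568). The 4 genes named before them were lower in the deletion strain under arsenite (-0.93, -1.05, -1.46 and -0.48), against 0.93, 0.59, 0.06 and 0.84 under t-BOOH. For INO1 the order was the reverse, with -1.13 under arsenite against -2.28 under t-BOOH (difference 1.15, adjusted p = 0.0157).

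Among the highest differences were MCH4 (2.14), BIO4 (1.76), CRC1 (1.54) and BIO5 (1.46), and none of these 4 was called under arsenite itself, where they stood at 0.06, -0.02, 0.20 and -0.06. Their t-BOOH ratios were -2.08, -1.78, -1.34 and -1.52. Amino acid synthesis had 14 of 53 genes with a higher arsenite ratio and ribosomal proteins 5 of 58, against 2.07% over all genes. Their medians were 0.02 and 0.67 under arsenite against -0.52 and -0.46 under t-BOOH. Heat shock genes had 1 of 31 with a lower arsenite ratio, against 1.16% over all genes, a count too small to read as a result. Their median was -0.17 under arsenite against 0.53 under t-BOOH. The t-BOOH arrays differed among themselves, with ribosomal protein medians of -1.37, -0.32, 0.06 and -0.08 and heat shock medians of 1.13, 0.75, -0.26 and 0.64 on replicates 1 to 4. These counts rested on single arrays. The total of 164 was 5, 1 and 1 without arsenite replicates 1, 2 and 3, and 326, 1, 1010 and 1 without t-BOOH replicates 1 to 4, and 406 with all 12 arrays in 1 fit. ARR2 was called each time.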

How the data were processed

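Each of the 12 arrays was scanned with Feature Extraction 10.7.3.1, per the file headers. The deposited median spot and background brightness per channel are intensity values without normalization. The scanner's processed signals are deposited intensity values, corrected for background and dye as the file headers state, and its deposited log10 ratios are red over green of these. The authors' deposited table holds log2 values per array. Set against the scans here, its scale was log2 and its direction deletion over wild type, with correlations of 0.991 to 0.999 over genes and slopes of 1.01 to 1.03. Its column medians were -0.02, 0.00, 0.00 and 0.00 for arsenite replicates 1 to 4, -0.01, -0.00, -0.00 and -0.01 for untreated and 0.01, -0.01, 0.01 and -0.03 for t-BOOH. The sources used here give neither its normalization and centring nor the genome build behind the array.

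With limma 3.58.1 in R 4.3.3, median signals were corrected by normexp (offset 50), turned into log2 ratios and normalized by loess within arrays. Control spots and outlier spots were dropped. The spots of a gene were averaged, 2 for 5076 genes. The main comparison was fitted to the 4 arsenite arrays with a mean and a dye coefficient (2 residual and 9.10 prior degrees of freedom), and each difference between conditions to 8 arrays. A gene was called at an adjusted p under 0.05 (Benjamini-Hochberg, over all genes tested), and SEs are from the fit. Signals of single strains were made comparable between arrays by Aquantile normalization, and were not compared between genes. The calculation was tested on simulated data. The number of arrays limits the precision.

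RefSeq's gene table for ASM251v1 supplied names and gene order, and it matched 5069 identifiers and gave 3955 symbols. Members of the 27 gene lists were matched by symbol, and members with no match were not analysed here. For each list, the 2 called members with the largest ratio, the 15 highest and lowest genes, the chromosome-end extremes, the ARR1 neighbours and the 5 highest and lowest differences were named by rule, and further list members were named after their values were seen. A gene that the rule selects is not reported here. The lists, the rule for named genes and the tests were chosen with earlier results of these data known.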

Additional observations from a re-analysis of the deposited data

Results flagged for a closer look

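Arsenite replicate 4 lay far from the other arrays in several values. Its ratios correlated with those of the other arsenite arrays at a mean of 0.445. Its log2 ratio was nearer to 0 than on the other 3 arrays for STE6 (-0.61), KLLA0C14993g (-0.48) and CIA2 (-0.24), and higher for OPT1 (0.39). Replicate 3 lay apart for PDH1 (-1.32) and MRPL8 (0.66). Chance alone puts about 1 in 20 groups of 4 past this limit, and all named genes were screened.

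The effect of the deletion differed by test between conditions for a small number of the named genes. Against untreated cells the arsenite ratio was lower for ARR2 (-2.75) and JLP1 (-1.92). Against t-BOOH it was lower for ARR2 (-2.45), KLLA0E23497g (-1.85), KLLA0F00682g (-1.63), KLLA0F06061g (-1.52), MPM1 (-1.32), KLLA0C14993g (-1.30), ERG2 (-1.10), KLLA0E20637g (-0.93), KLLA0B01936g (-0.92), CIA2 (-0.90) and KAR4 (-0.73). It was higher for MCH4 (2.14), BIO4 (1.76), CRC1 (1.54), BIO5 (1.46), RPS9B (1.39), INO1 (1.15) and YHP1 (1.08).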

How the results depend on the processing

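The count of 726 genes called under arsenite was 238 without the dye coefficient and 218 with all 12 arrays in 1 fit, of which 238 and 216 were among the 726. It was 324 to 1082 with 1 array left out, with 1 residual degree of freedom each, and 530 to 974 under the other signals, normalizations, filters and variance models. The fits with 1 array left out had 124 or infinite prior degrees of freedom, so their counts are not like for like with the main one. The difference from untreated cells called 2 genes, 9 without the dye coefficient, 0 with the scanner's processed signals, and 1 to 28 with 1 array left out. The difference from t-BOOH called 164 genes, 104 with processed signals, 406 with all 12 arrays, and 1 to 1010 with 1 array left out. The cause of these shifts was not tested. Whether equal replicate numbers pair the arrays is not given by the labels, and the correlations that follow cannot settle it. Deviations correlated between arsenite and untreated arrays of a number at 0.403, -0.03, 0.037 and 0.168, and between arsenite and t-BOOH at -0.0699, -0.341, -0.244 and -0.159. A fit with the replicate block called 45 genes against untreated cells and 5 against t-BOOH.

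No called ratio of a named gene changed its direction under any alternative. Of the values of named genes under the alternatives, 968 stayed on their side of the threshold, 142 lost their call, and 6 uncalled ones (KLLA0E00177g, PBS2, KLLA0E00287g and FPS1) changed sign with 1 array left out. ARR1, ARR2 and JLP1 under arsenite kept their call under all 12 alternatives, JLP1 at -2.21 to -1.57. The calls lost most often were those of TYE7 (8), GLN1 (7), BAT1, ATG4 and EFB1 (6 each) and ERG10, MRPL8 and MET17 (5 each), while HIS3 lost its call in 4 and HSP26 in 1. The difference of ARR2 from untreated cells lost its call with processed signals, and that of JLP1 in 7 alternatives. The median of ribosomal proteins was 0.42 to 0.79 and that of ribosome biogenesis 0.30 to 0.61.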

Other observations

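The 3 metabolic groups given here, biotin genes included, were chosen after the called genes were seen and therefore have no test. Over all genes tested, 7.22% were lower and 7.14% higher. Of 21 measured genes of phospholipid and inositol synthesis 5 were lower in the deletion strain under arsenite and 0 higher, while the median of the 21 was 0.08 and 9 were below 0. INO1, INO4, a partner of the regulator of INO1 (-0.65, -0.46, -0.61 and -0.25, mean -0.49), OPI3, a methyltransferase of phosphatidylcholine synthesis (-0.73, -0.49, -0.63 and -0.12, mean -0.49), and GPT2, which starts glycerolipid synthesis (-0.78, -1.33, -1.56 and -0.27, mean -0.98), were called in 3 fits. The inositol transporter gene ITR1 averaged -0.43. Without stress INO1 stood at -1.14, against -0.27 for INO4, -0.08 for OPI3 and -0.02 for GPT2.

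Of 33 genes of fatty acid oxidation, the glyoxylate cycle and peroxisome assembly 8 were lower and 0 higher (median -0.13). They were POT1 (-1.11), MLS1, malate synthase (-0.75), the lipase gene LPX1 (-0.58), SPS19 (-0.53), MDH3 (-0.48), the peroxisomal import genes PEX5 (-0.43) and PEX10 (-0.42), and POX1, acyl-CoA oxidase (-0.43). POT1, MLS1 and LPX1 were called in 3 fits. In untreated cells these 8 stood between -0.16 and 0.24, and under t-BOOH between -0.72 (MDH3) and 0.22 (PEX10), with POT1 at -0.66. None of the 8 passed as different between arsenite and untreated cells or between arsenite and t-BOOH. Of 6 biotin genes BIO2 alone was lower (-1.11), with a ratio of -0.97 under t-BOOH, while BIO3, BIO4, BIO5 and VHT1 had arsenite ratios of -0.08, -0.02, -0.06 and -0.23, against -0.91, -1.78, -1.52 and -1.02 under t-BOOH.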
